A study of Homo sapiens with 8 samples.

Results

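MHC class I antigen presentation was examined through 9 genes, HLA-B, HLA-C, HLA-E, HLA-F, B2M, TAP1, TAP2, TAPBP and NLRC5, taken by gene name from a table of 19158 genes. Other class I genes are not analysed here. RNA was measured in A549, an established epithelial cell line from a human lung adenocarcinoma, labelled wild type. Per the labels, 4 wells were left untreated and 4 wells received the synthetic glucocorticoid dexamethasone at 1 µM for 48 h, all in DMEM with foetal bovine serum and all under 1 batch label. Each well gave 1 library, numbered 1, 3, 4 and 5 in each group. The wells are cultures of 1 cell line, so the p-values measure the spread between wells of that line.

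Class I molecules are made of a heavy chain and beta-2-microglobulin, and they carry peptides from inside the cell to its surface for CD8 T cells. The proteasome cuts proteins into peptides, the TAP1/TAP2 transporter pumps these into the endoplasmic reticulum, and tapasin (TAPBP) holds empty class I molecules at the transporter until a peptide fits. Airway epithelium makes these molecules at a basal level, and interferons raise it through IRF1 and NLRC5, the transactivator that binds class I promoters together with RFX and NF-Y factors.

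Promoters of class I genes are known for short elements on which IRF and NF-kB factors act, and the stretches below are shown because their letters match such elements. RefSeq promoter windows (GRCh38.p14) were read for 7 of the 9 members, all but HLA-E and NLRC5, and the 250 bases before the gene start were searched on both strands. The interferon-stimulated response element was searched as GAAA, any 2 bases and GAAA, and in a shorter form, GAA, any 2 bases and GAAA, which can overlap each other. TAP1 has 2 windows, 1 of which held no match to any motif searched. The other windows all held the one form or the other, against 9.1% of 35116 windows of the same length, where the first form was in 3.0% and the second in 6.6%. The stretches below read 5′ to 3′ on the gene's strand, with the matching bases in capitals.
HLA-B (minus strand, chr6:31357316-31357345): actcccctgagTTTCACTTCttctcccaac
HLA-C (minus strand, chr6:31272225-31272254): actcccctgagTTTCACTTCtcccaacctg
HLA-F (plus strand, chr6:29723268-29723297): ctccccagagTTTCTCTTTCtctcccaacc
B2M (plus strand, chr15:44711366-44711395): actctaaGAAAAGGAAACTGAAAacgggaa
TAP1 (minus strand, chr6:32853816-32853845): cggccgcTTTCGATTTCGCTTTCccctaaa
TAP2 (minus strand, chr6:32838781-32838810): tggctgggGAAGCGAAAGCGAAAgctgccc
TAPBP (minus strand, chr6:33314079-33314108): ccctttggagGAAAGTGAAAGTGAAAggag
HLA-B and HLA-C held the shorter form only, in identical letters. B2M, TAP1, TAP2 and TAPBP each held 2 overlapping matches. A match describes the letters and is not shown to be a bound site. The stretches of B2M, TAP1 and TAPBP overlap exons of the same genes in the GENCODE v44 annotation. That of TAP2 overlaps an exon of a read-through gene. Their place before the gene start thus holds for the RefSeq start used here.

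The NF-kB consensus was found in the windows of HLA-B, HLA-C, B2M, TAP1 and TAPBP, against 3498 of all 35116 windows. It overlaps none of the response elements in those windows, and it is shown for the classical heavy chains and for TAP1. The TAP1 stretch shown overlaps a GENCODE v44 exon of TAP1.
HLA-B (minus strand, chr6:31357337-31357366): gcgcagcgttGGGGATTCCCCactcccctg
HLA-C (minus strand, chr6:31272245-31272274): cgccgcgttgGGGATTCTCCactcccctga
TAP1 (minus strand, chr6:32853757-32853786): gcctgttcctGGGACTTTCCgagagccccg
The motif AGAACA, one arm of the sequence that the glucocorticoid receptor binds, was in 12.4% of all windows and matched no member's window.

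Libraries were first checked as a whole. Per-library sums of FPKM, a measure of fragments per unit of transcript length and of library size, ran from 338989 to 373855, and steps between low values corresponded to 24890000 to 29350000 fragments per library, although a multiple of these depths explained the steps about as well. The glucocorticoid-induced genes FKBP5 (5.8 ± 1.78 against 136 ± 37.6 FPKM, SD, n = 4 each) and TSC22D3 (6.12 ± 1.15 against 103 ± 8.78 FPKM, SD, n = 4 each) were high in every library labelled as treated. Of 12161 genes tested with limma, 26.7% had a Benjamini-Hochberg adjusted p under 0.05, 12.4% higher and 14.3% lower after dexamethasone. Untreated replicate 5 and dexamethasone replicate 5 stood apart from their groups, with scaling factors of 0.824 and 0.928 where the other libraries had 1.02 to 1.09. Of 6 epithelial genes, KRT8 and KRT18 were abundant in every library (at least 957 and 805 FPKM) and EPCAM was at 0.765 FPKM or less. The other 3 changed with treatment by limma: KRT19 fell from 156 ± 30.6 to 54.7 ± 8.28 FPKM (adjusted p = 0.0014), CDH1 rose from 6.80 ± 1.51 to 18.2 ± 1.45 FPKM (adjusted p = 8.15e-05) and CLDN7 rose from 0.12 ± 0.13 to 2.83 ± 0.526 FPKM (SD, n = 4 each, adjusted p = 2.78e-05). All untreated CLDN7 values were under 0.5 FPKM, so CLDN7 passed the filter on low values only through the dexamethasone libraries. The leukocyte genes PTPRC and CD3E were listed at 0 in all 8 libraries. The summed leukocyte list, mostly CD14 and CD68, ran from 5.78 to 7.52 FPKM in the untreated wells and from 3.07 to 3.75 FPKM in dexamethasone libraries. Of 5 fibroblast and 4 endothelial genes, 4 and 4 were under 0.5 FPKM throughout, and the fibroblast sum was 1.82 to 2.30 FPKM in untreated and 0.598 to 0.786 FPKM in dexamethasone libraries. COL1A1 (2.03 ± 0.188 and 0.367 ± 0.0765 FPKM, SD, n = 4 each) made up most of the untreated sum, and DCN was listed at 0 in untreated and at 0.178 to 0.355 FPKM in dexamethasone libraries. The part of these shifts in the results below was not tested.

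Among the 9 members the transporter genes TAP1 and TAP2 were called lower after dexamethasone, and no member was called higher in the reported fit. HLA-E was called higher in 6 of 19 other settings. The share called lower was 2 of 9, beside 14.3% of all tested genes, and 0 of 9 were called higher by limma, also at an unadjusted p under 0.05. All 9 members passed the filter on low values. The median log2 fold change of the members, on the log2(FPKM + 1) scale, was -0.26, and that of all tested genes was 0.01. The members' median was -0.12 without untreated replicate 5 and -0.15 with the trend of each library on the GC content of genes removed. In bulk RNA, fewer cells with a transcript and less transcript per cell cannot be told apart.

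**Figure D1:**
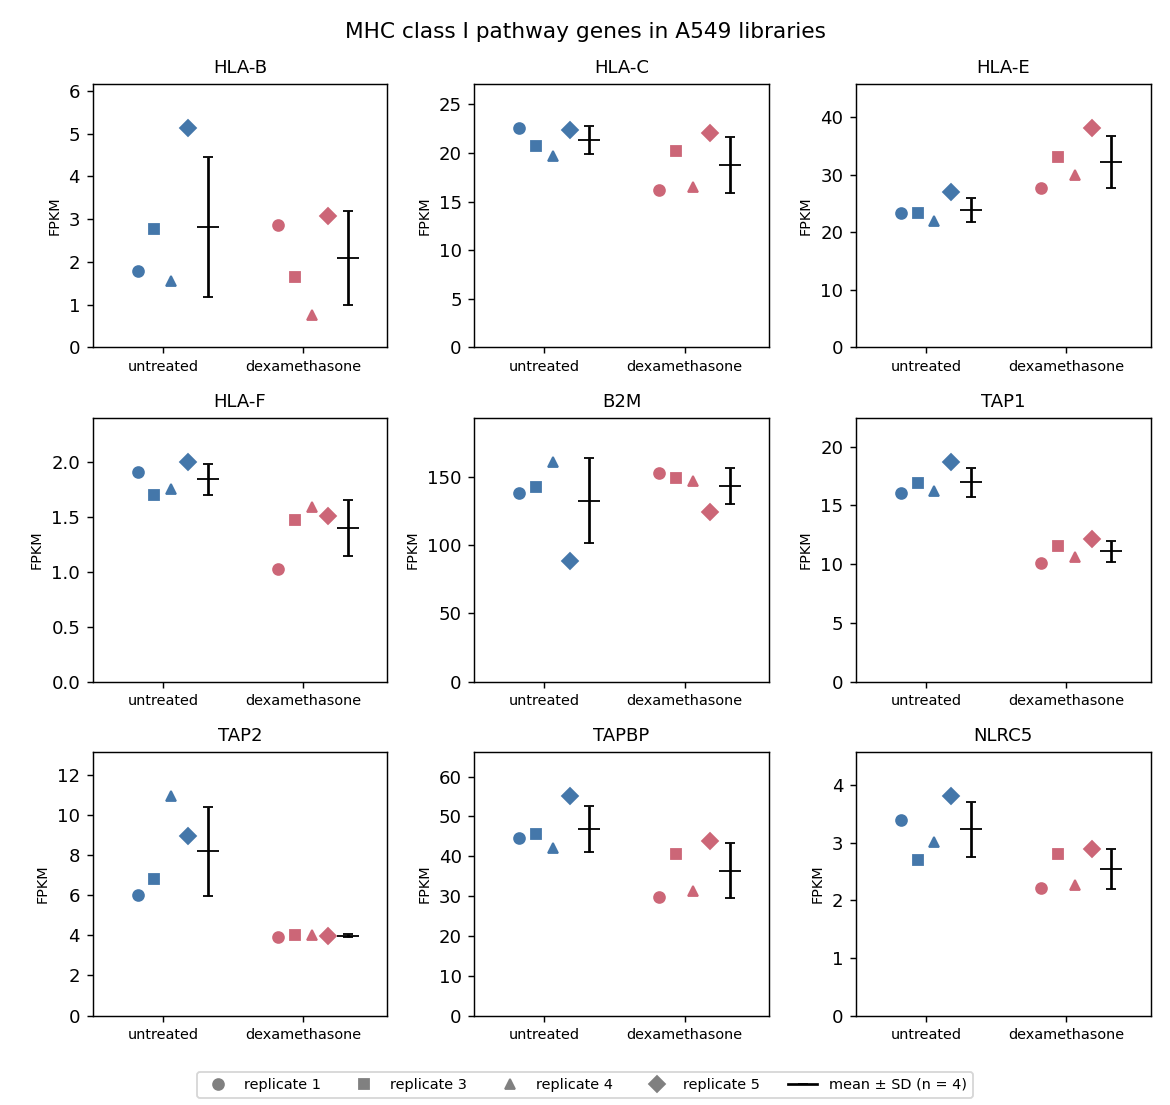
FPKM of the 9 members (vertical axes, each from 0) in 4 untreated and 4 dexamethasone libraries, 1 symbol shape per replicate number, with the mean and SD of each group. TAP1 and TAP2 are below every untreated library in all 4 dexamethasone libraries, and B2M is lowest in replicate 5 of each group.

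TAP1 encodes one chain of the peptide transporter (ENSG00000168394, GRCh38 chromosome 6, 32845209 to 32853978, minus strand, protein coding). It was at 16.1, 16.9, 16.2 and 18.7 FPKM in untreated wells 1, 3, 4 and 5. It was at 10.1, 11.5, 10.6 and 12.1 FPKM in treated wells 1, 3, 4 and 5. In deposited FPKM every treated library lay below every untreated one, and the gap was wider than the spread inside either group. After scaling between libraries the groups still did not overlap, but the gap was narrower than the spread inside either group. The means were 17.0 ± 1.22 and 11.1 ± 0.905 FPKM (SD, n = 4 each), and the log2 fold change was -0.58 (standard error 0.16, 95% interval -0.94 to -0.22, limma adjusted p = 0.0251). The call was lost without dexamethasone replicate 1, 3 or 4, at limma adjusted p-values of 0.0765, 0.0528 and 0.0737.

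TAP2 encodes the other chain (ENSG00000204267, chromosome 6, 32821833 to 32838780, minus strand, protein coding). Untreated wells 1, 3, 4 and 5 had 5.99, 6.81, 10.9 and 8.95 FPKM. Treated wells 1, 3, 4 and 5 had 3.92, 4.04, 4.03 and 3.95 FPKM. The treated libraries were nearly equal, whereas the untreated ones were spread, with replicate 4 the highest. The log2 fold change was -0.85 (standard error 0.194, 95% interval -1.29 to -0.42, limma adjusted p = 0.0101), and TAP2 was called lower in all 19 other settings tried. The ratio of TAP1 to TAP2 was 2.18 ± 0.527 in untreated and 2.78 ± 0.225 in dexamethasone libraries (SD, n = 4 each), and its ranges, 1.48 to 2.68 and 2.57 to 3.06, overlapped. A read-through gene on the same strand covers TAP2 in the GENCODE v44 annotation, and how shared reads were counted is not stated.

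TAPBP encodes tapasin (ENSG00000231925, chromosome 6, 33299694 to 33314387, minus strand, protein coding). It was at 44.6, 45.6, 42.1 and 55.2 FPKM in the untreated wells and at 29.7, 40.7, 31.3 and 43.9 FPKM in treated wells 1, 3, 4 and 5. Dexamethasone replicate 5 lay inside the untreated range, and the log2 fold change of -0.37 (95% interval -0.86 to 0.11, limma adjusted p = 0.229) did not pass. The interval runs from above 0 to about the fall measured for TAP2, and the log2 fold change was -0.20 without untreated replicate 5 and -0.16 with the GC trend removed. TAPBP passed in 1 of 19 other settings, the replicate block (limma adjusted p = 0.0244).

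HLA-C, a classical heavy chain that presents peptides to T cells and binds inhibitory receptors of NK cells (ENSG00000204525, chromosome 6, 31268749 to 31272130, minus strand, protein coding), was at 22.6, 20.7, 19.6 and 22.4 FPKM in untreated wells 1, 3, 4 and 5. After dexamethasone it was at 16.2, 20.2, 16.5 and 22.0 FPKM. Replicates 1 and 4 of the treated group were lower than every untreated library, and replicates 3 and 5 were within the untreated range. The log2 fold change was -0.19 (95% interval -0.59 to 0.20, limma adjusted p = 0.444), and it was 0.079 with the trend on GC content removed.

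HLA-E is a non-classical heavy chain that presents mainly signal peptides of other class I chains to a receptor of NK cells (ENSG00000204592, chromosome 6, 30489467 to 30494205, plus strand, protein coding). Untreated wells 1, 3, 4 and 5 had 23.3, 23.3, 22.0 and 27.0 FPKM. Treated wells 1, 3, 4 and 5 had 27.7, 33.1, 30.02 and 38.2 FPKM. In deposited FPKM every treated library lay above every untreated one, and after scaling between libraries the groups overlapped. The log2 fold change was 0.41 (standard error 0.187, 95% interval -0.01 to 0.83, limma adjusted p = 0.137), so HLA-E did not pass. It passed in 6 of 19 other settings, among them without untreated replicate 5 (log2 fold change 0.56, limma adjusted p = 0.0209), without both libraries numbered 5 (0.43, limma adjusted p = 0.00781), and with the GC trend removed (0.59, limma adjusted p = 0.000855). HLA-E also passed with the replicate block (0.41, limma adjusted p = 0.0111).

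The ratio of HLA-E to HLA-C does not depend on the scaling of a library. It was 1.03, 1.13, 1.12 and 1.21 in untreated wells 1, 3, 4 and 5 and 1.71, 1.64, 1.82 and 1.73 in treated wells 1, 3, 4 and 5. The groups were thus well apart, with the highest untreated ratio below the lowest treated one. This ratio was chosen after the values had been seen and has no test. Summed over HLA-B, HLA-C, HLA-E and HLA-F, the heavy chains were at 49.9 ± 4.82 FPKM in the untreated wells and 54.4 ± 7.91 FPKM in dexamethasone libraries (SD, n = 4 each), and their ranges overlapped. HLA-E made up 47.9% ± 0.804 of this sum in untreated and 59.3% ± 1.53 in dexamethasone libraries, and HLA-C 42.9% ± 2.49 and 34.4% ± 0.98 (SD, n = 4 each).

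**Figure D2:**
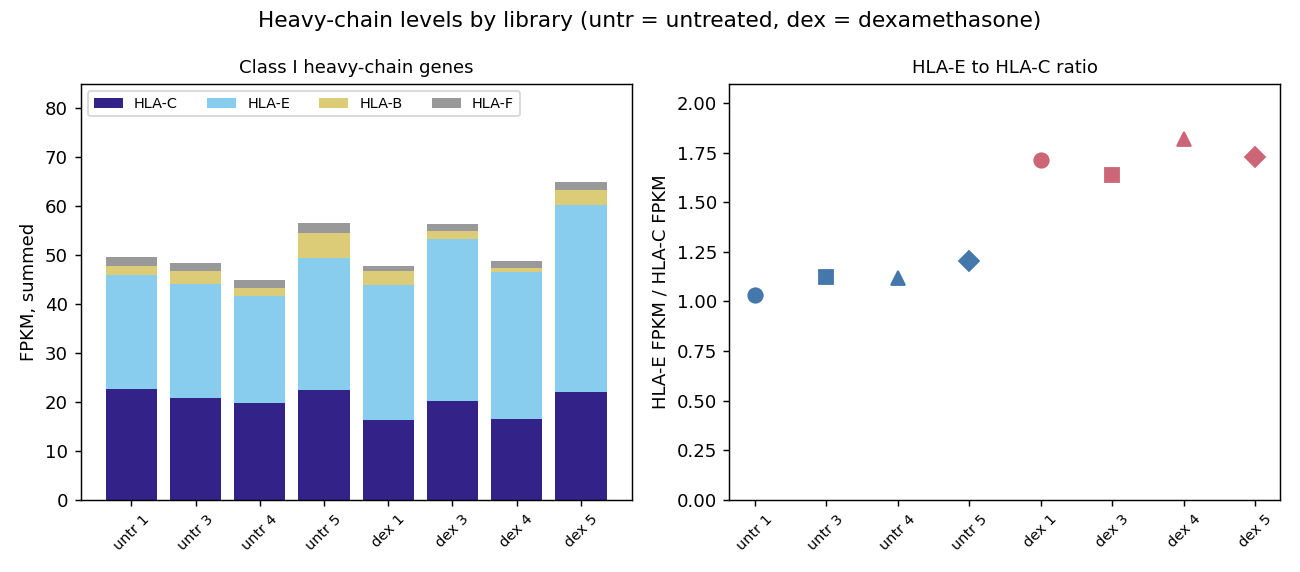
Left, FPKM of HLA-C, HLA-E, HLA-B and HLA-F stacked for each of the 8 libraries. Right, the ratio of HLA-E to HLA-C FPKM, which lies between 1.03 and 1.21 in untreated and between 1.64 and 1.82 in dexamethasone libraries.

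HLA-B, the other classical heavy chain examined (ENSG00000234745, minus strand, protein coding), was low in A549, at 1.79, 2.77, 1.55 and 5.14 FPKM in the untreated wells and 2.87, 1.65, 0.749 and 3.08 FPKM in treated wells 1, 3, 4 and 5. The values varied several-fold inside each group, and the log2 fold change of -0.30 (95% interval -1.15 to 0.54, limma adjusted p = 0.575) was smaller than that spread. Its sign rested on 1 library, since the log2 fold change was 0.030 without untreated replicate 5. The locus given with the values, chromosome 6, 31268555 to 31357188, covers HLA-C as well, while GENCODE v44 starts HLA-B at 31353872. HLA genes are also alike in sequence and vary between people, and the handling of reads that match several of them is not stated, so the split of reads between HLA-B and HLA-C is uncertain.

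HLA-F, a non-classical chain found mostly inside cells (ENSG00000204642, chromosome 6, 29722775 to 29738528, plus strand, protein coding), was at 1.91, 1.70, 1.76 and 2.002 FPKM in the untreated wells and 1.02, 1.47, 1.59 and 1.51 FPKM in treated wells 1, 3, 4 and 5. All treated values were below the untreated ones in deposited FPKM but not after scaling. The log2 fold change was -0.25 (95% interval -0.56 to 0.05, limma adjusted p = 0.188), and it was -0.048 with the GC trend removed. With HLA-E, TAP1 and TAP2, it made 4 of 9 members whose groups did not overlap in deposited FPKM, beside 31.5% of all tested genes. HLA-F, TAP1 and TAP2 lay below the untreated range, as did 19.2% of tested genes, and HLA-E lay above it, as did 12.3%. The non-coding gene HLA-F-AS1 overlaps HLA-F on the opposite strand.

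B2M encodes the light chain that all class I molecules share (ENSG00000166710, chromosome 15, 44711487 to 44718877, plus strand, protein coding), and it was the most abundant member. It was at 138, 143, 161 and 88.01 FPKM in the untreated wells and 153, 149, 147 and 124 FPKM in treated wells 1, 3, 4 and 5. The group ranges overlapped, with a log2 fold change of 0.14 (95% interval -0.18 to 0.45, limma adjusted p = 0.489), which was -0.15 with the GC trend removed. B2M exceeded the summed heavy chains 2.72 ± 0.847 times in untreated and 2.69 ± 0.567 times in dexamethasone libraries (SD, n = 4 each). Replicate 5 had the lowest such ratio in each group, at 1.56 and 1.92.

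NLRC5, the class I transactivator (ENSG00000140853, chromosome 16, 56989485 to 57083531, plus strand, protein coding), was at 3.39, 2.71, 3.01 and 3.82 FPKM in the untreated wells and 2.21, 2.80, 2.27 and 2.90 FPKM in treated wells 1, 3, 4 and 5. The groups overlapped, and the log2 fold change was -0.26 (95% interval -0.64 to 0.13, limma adjusted p = 0.287). It was -0.12 without untreated replicate 5 and -0.037 with the GC trend removed.

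In untreated cells the mean levels, in FPKM, followed the order B2M (133), TAPBP (46.9), HLA-E (23.9), HLA-C (21.3), TAP1 (17.0), TAP2 (8.18), NLRC5 (3.23), HLA-B (2.81) and HLA-F (1.84). HLA-E and HLA-C overlapped in range, and so did NLRC5, HLA-B and HLA-F, whereas the other neighbours did not. After dexamethasone the order of the means was the same. TAPBP (36.4 ± 6.97 FPKM) and HLA-E (32.2 ± 4.53 FPKM, SD, n = 4 each) then overlapped, and HLA-E no longer overlapped with HLA-C (18.7 ± 2.88 FPKM).

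The members did not vary as 1 block across the 8 libraries. On the scaled log2 scale TAPBP, NLRC5 and HLA-C moved closely together (Pearson r 0.94 to 0.96 over 8 libraries). TAP1 and TAP2 had an r of 0.87, and TAP1 was at least as close to TAPBP (0.90), HLA-F (0.89) and NLRC5 (0.87). B2M ran against every other member, with r from -0.86 to -0.28. These correlations share the treatment contrast and the libraries numbered 5. In deposited FPKM, B2M was lowest and HLA-B, HLA-E, TAP1, TAPBP and NLRC5 were highest of their group in these libraries. On the scaled values used for the correlations, every member other than B2M was highest of its group there, and B2M lowest. B2M has the lowest GC content of the members, 38.9% in its longest transcript, where the others have 47.2% to 62.7%. Across all tested genes, fold changes fell with GC content (Spearman rho -0.444 over 12130 genes, which are not independent replicates). With the GC trend removed TAP1 stayed lower (log2 fold change -0.37, limma adjusted p = 0.00235) and so did TAP2 (-0.86, limma adjusted p = 0.00569). The 5 genes whose log2 values were most like the mean of the z-scored members over 8 libraries were DBNDD1 (r 0.996), MCRIP1, TUBB4A, NSMF and CD81 (r 0.988), none of which passed the test of dexamethasone against untreated. That mean was highest in untreated replicate 5, at 1.23, where the other libraries had -0.75 to 0.35.

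**Figure D3:**
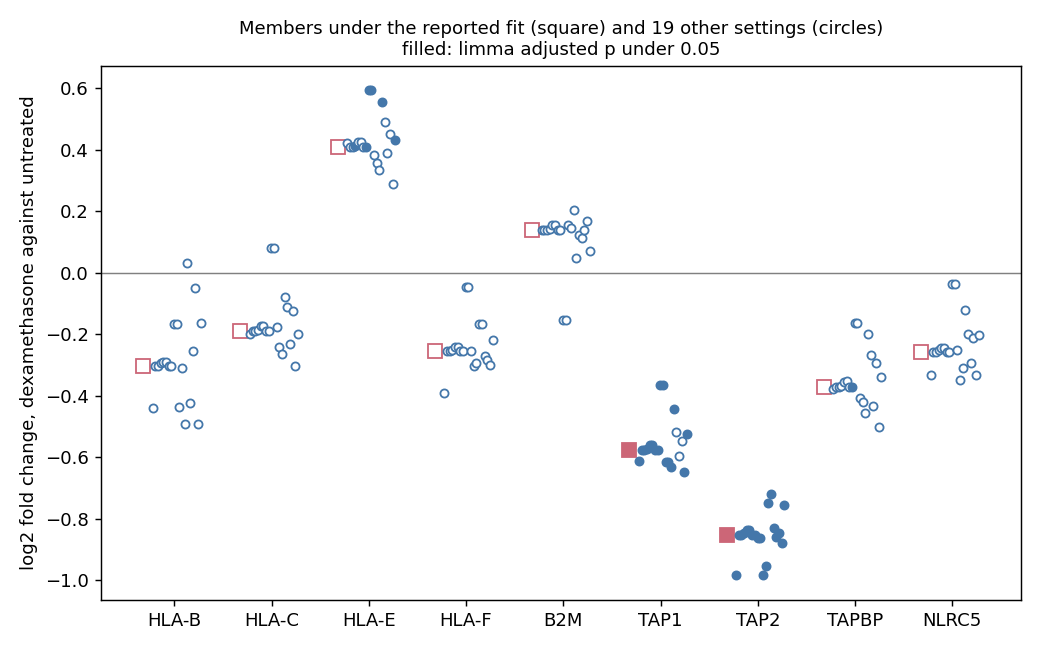
Log2 fold change of each member (vertical axis) in the reported fit (squares) and under 19 other settings (circles), filled where the limma adjusted p is under 0.05. TAP2 is filled under every setting, TAP1 under 16 of 19 and HLA-E under 6 of 19.

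Immunoproteasome subunits replace catalytic subunits of the standard proteasome and favour peptides that fit class I molecules, and PSME1 and PSME2 form an activator of it. Of 6 genes listed, 2 fell and 0 rose (limma, with 4 lower and 0 higher at an unadjusted p under 0.05), and the median log2 fold change was -0.56. Over all tested genes 14.3% were called lower, and 20.1% were lower and 19.1% higher at an unadjusted p under 0.05. PSMB9 fell the most, from 16.0, 14.6, 15.6 and 21.1 FPKM in the untreated wells to 4.10, 3.85, 5.39 and 5.88 FPKM in treated wells 1, 3, 4 and 5. The groups were far apart, with means of 16.9 ± 2.9 and 4.80 ± 0.982 FPKM (SD, n = 4 each) and a log2 fold change of -1.63 (standard error 0.22, limma adjusted p = 0.000562). PSME2 fell from 44.5 ± 2.25 to 26.6 ± 1.69 FPKM (SD, n = 4 each), with a log2 fold change of -0.72 (limma adjusted p = 0.00734).

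PSMB8 had 14.6, 13.1, 11.2 and 22.0 FPKM in the untreated wells and 8.75, 8.49, 7.44 and 11.5 FPKM in treated wells 1, 3, 4 and 5, and did not pass (log2 fold change -0.67, limma adjusted p = 0.099). The highest treated library, replicate 5, was just above the lowest untreated one. PSMB10 was at 14.4 ± 4.98 and 11.5 ± 2.03 FPKM (SD, n = 4 each, limma adjusted p = 0.485), and its sign rested on untreated replicate 5, since the log2 fold change was -0.27 with it and 0.022 without it. The 14 constitutive proteasome subunits held 0 calls in either direction by limma, with 1 higher (PSMA6, log2 fold change 0.37, limma adjusted p = 0.108) and 0 lower at an unadjusted p under 0.05, and their median log2 fold change was -0.05. PSMA4, the next by p, was at 62.3 ± 29.7 and 86.1 ± 13.5 FPKM (limma adjusted p = 0.159).

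PSMB9 and TAP1 are neighbours that start 487 bases apart and are read in opposite directions, from 32854192 and 32853704 on chromosome 6 by RefSeq. The response element and the NF-kB motif printed for TAP1 lie between these starts. The locus given for PSMB9 (ENSG00000240065, 32844136 to 32859585, plus strand) covers TAP1 and overlaps PSMB8, both on the opposite strand, so their values are uncertain if the counting ignored the strand, which is not stated. PSMB9 was called lower in all 19 other settings.

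**Figure D4:**
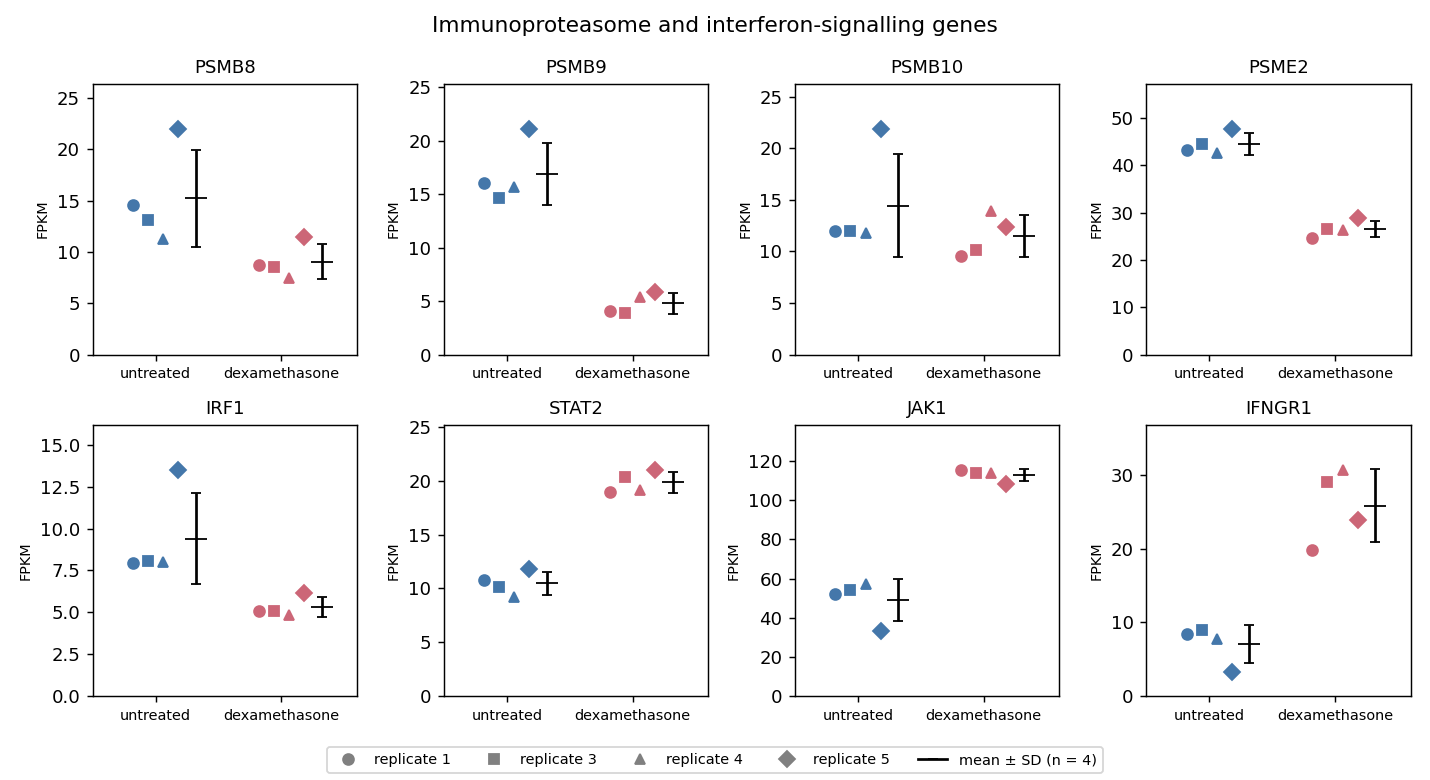
FPKM of immunoproteasome genes (upper row) and of interferon-signalling genes (lower row) by library, vertical axes from 0, with the mean and SD of each group (n = 4). PSMB9 and PSME2 are lower, and STAT2, JAK1 and IFNGR1 higher, in every dexamethasone library than in any untreated one.

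Of the 10 genes for peptide loading and trimming, TAP1 and TAP2 were the 2 called lower, and 0 were called higher by limma, also at an unadjusted p under 0.05. Among all tested genes 14.3% were called lower and 12.4% higher, and 19.1% were higher at that unadjusted p. TAPBPL, a tapasin-like peptide editor, was at 2.55 ± 0.38 and 1.69 ± 0.185 FPKM (SD, n = 4 each, limma adjusted p = 0.0818). The chaperone calreticulin (CALR) was at 388 ± 32.9 and 308 ± 30.4 FPKM (limma adjusted p = 0.218), and calnexin (CANX) at 161 ± 44.7 and 190 ± 22.9 FPKM (limma adjusted p = 0.23).

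Of 11 genes of interferon reception and signalling, 4 rose and 0 fell (limma, 5 higher and 0 lower at an unadjusted p under 0.05), with a median log2 fold change of 0.12. Over all tested genes the shares higher were 12.4% called and 19.1% at an unadjusted p under 0.05. IFNGR1, the ligand-binding chain of the interferon-gamma receptor, was at 8.34, 8.91, 7.68 and 3.28 FPKM in the untreated wells and 19.7, 29.0, 30.7 and 23.9 FPKM in treated wells 1, 3, 4 and 5. The groups did not overlap, and the log2 fold change was 1.79 (standard error 0.223, limma adjusted p = 0.000349). The receptor kinase JAK1 rose from 49.0 ± 10.9 to 113 ± 3.2 FPKM (SD, n = 4 each), with a log2 fold change of 1.22 (limma adjusted p = 0.000116).

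STAT2, which carries type I interferon signals to the nucleus, rose from 10.5 ± 1.1 to 19.9 ± 0.964 FPKM (SD, n = 4 each, log2 fold change 0.86, limma adjusted p = 0.00394). JAK2 was higher as well (0.55, limma adjusted p = 0.0118), but not with the GC trend removed (0.20, limma adjusted p = 0.259). The rises of STAT2, JAK1 and IFNGR1 were called in all 19 other settings.

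Among 13 factors of class I promoters, 1 was called lower and 0 higher by limma (2 lower and 2 higher at an unadjusted p under 0.05), and the median log2 fold change was -0.25. The shares of all tested genes were 14.3% called lower and 12.4% higher, and 20.1% lower and 19.1% higher at that unadjusted p. The called gene was NFYC, a subunit of the factor that binds CCAAT boxes, which fell from 18.6 ± 0.979 to 13.3 ± 0.729 FPKM (SD, n = 4 each, log2 fold change -0.46, limma adjusted p = 0.022). That call was lost without untreated replicate 1 or without dexamethasone replicate 1, 3 or 4, where the limma adjusted p was 0.061, 0.0681, 0.0563 and 0.0708. IRF1 is a factor known to act on interferon-stimulated response elements. It was at 7.97, 8.09, 8.03 and 13.5 FPKM in the untreated wells and 5.07, 5.06, 4.86 and 6.18 FPKM in treated wells 1, 3, 4 and 5. All treated libraries were below all untreated ones, yet the log2 fold change of -0.70 had a limma adjusted p of 0.0571, and it passed in 8 of 19 other settings, without untreated replicate 5 among them (-0.45, limma adjusted p = 0.0266).

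**Figure D5:**
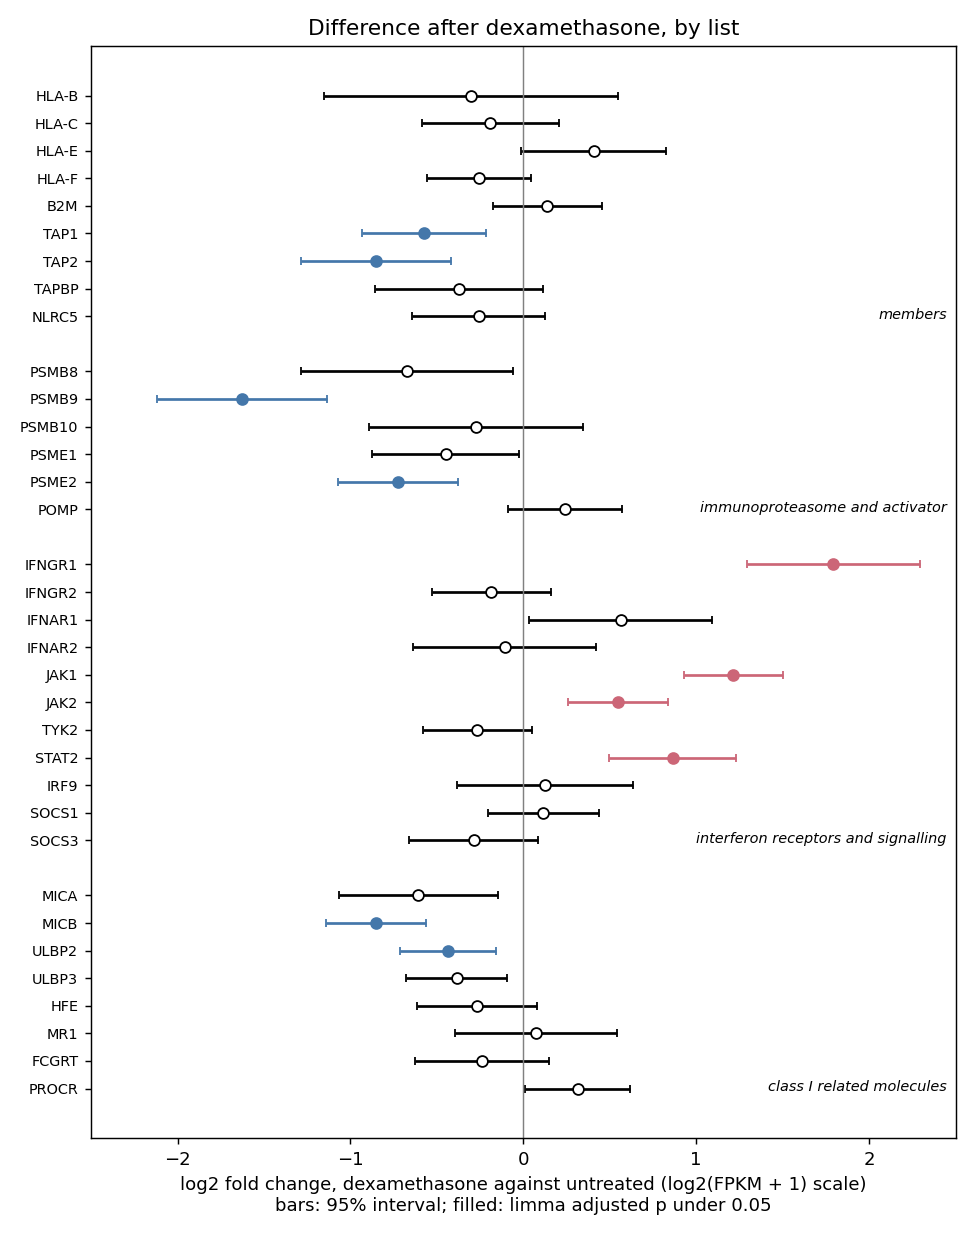
Log2 fold change (horizontal axis) with its 95% interval for the 9 members and 3 lists, filled where the limma adjusted p is under 0.05. The filled symbols of TAP1, TAP2, PSMB9, PSME2, MICB and ULBP2 lie to the left of 0, and those of 4 interferon-signalling genes to the right.

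Class I related molecules on the cell surface were measured for 8 of 11 genes, of which 2 fell and 0 rose by limma (4 lower and 1 higher at an unadjusted p under 0.05), where 14.3% of all tested genes were called lower and 20.1% were lower at that unadjusted p. MICB, a stress-induced ligand of an activating NK cell receptor, fell from 6.24 ± 0.694 to 3.01 ± 0.396 FPKM (SD, n = 4 each, log2 fold change -0.85, limma adjusted p = 0.00105). ULBP2, a ligand of the same receptor, fell from 1.36 ± 0.209 to 0.745 ± 0.121 FPKM (log2 fold change -0.44, limma adjusted p = 0.0273). The ULBP2 call was lost without untreated replicate 1 or 3 and without dexamethasone replicate 1, 3 or 4, where the limma adjusted p was 0.0546 to 0.0858. MICA was at 21.0 ± 3.01 and 13.5 ± 2.1 FPKM, just short of the threshold (SD, n = 4 each, log2 fold change -0.61, limma adjusted p = 0.0538), and passed in 7 of 19 other settings, at limma adjusted p-values of 0.00132 to 0.144 over all 19. ULBP1, CD1D and AZGP1 were below the filter.

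The class II pathway, which presents extracellular peptides and is mostly silent in such cells, had 3 of 13 genes above the filter. HLA-DRA and HLA-DRB1 were listed at 0 in all 8 libraries. HLA-DMB, a chain of the class II peptide editor, fell from 2.65, 2.07, 2.41 and 3.69 FPKM in the untreated wells to 0.170, 0.273, 0.147 and 0.0573 FPKM in treated wells 1, 3, 4 and 5, with a log2 fold change of -1.67 (standard error 0.181, limma adjusted p = 0.000158). All 4 treated values were under 0.5 FPKM, so the gene passed the filter through the untreated wells, and the log2 fold change was -3.47 with a pseudocount of 0.1 in place of 1. The other chain of that editor, HLA-DMA, was at 1.78 ± 0.238 and 1.77 ± 0.178 FPKM (SD, n = 4 each, limma adjusted p = 0.967). A read-through gene on the same strand overlaps both HLA-DMB and HLA-DMA. CTSS, a protease of this pathway, was at 3.65 ± 1.7 and 2.17 ± 0.226 FPKM (limma adjusted p = 0.123).

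Among 5 measured ligands of immune checkpoint and NK cell receptors, of 8 listed, 1 fell and 0 rose by limma (2 lower and 1 higher at an unadjusted p under 0.05). For all tested genes the shares were 14.3% called lower and 12.4% higher, and 20.1% lower and 19.1% higher at that unadjusted p. CD47, which signals to phagocytes not to engulf the cell, was at 14.6, 15.8, 23.4 and 9.82 FPKM in the untreated wells and 7.11, 7.39, 7.39 and 10.5 FPKM in treated wells 1, 3, 4 and 5. The groups overlapped in deposited FPKM but not after scaling, with a log2 fold change of -0.85 (limma adjusted p = 0.0141). NCR3LG1 was at 1.25 ± 0.387 and 1.74 ± 0.284 FPKM (SD, n = 4 each, limma adjusted p = 0.0829). CD274, which encodes the ligand of the checkpoint receptor PD-1, was below the filter, at 0.535 FPKM or less in every library.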

How the data were processed

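RNA was depleted of ribosomal RNA and sequenced in 8 libraries. Per the submitters' processing notes, the tools were FastQC 0.11.9, Cutadapt 3.4, STAR 2.7.9a, featureCounts (Subread 2.0.3) and DESeq2 1.32.0, with GRCh38. Neither the gene annotation's release nor the strand setting is given in the sources used here. The deposited values are called counts but were taken to be FPKM, because they are not whole and, multiplied by the longest transcript, sum to about the total FPKM gives. Steps between low values left 36.7% to 46.1% within 0.1 of a whole number of fragments, so no count test was run.

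Scaling between libraries used trimmed M values (0.3 of M and 0.05 of A trimmed). The test was limma 3.58.1 (R 4.3.3, trend and robust, two-sided) on log2(FPKM + 1), adjusted by Benjamini-Hochberg over 12161 genes with at least 0.5 FPKM in 4 libraries. Where a library was left out, the filter asked for 3. Printed FPKM are as deposited, and fold changes understate low genes. Named genes were the 9 members, FKBP5 and TSC22D3, the 2 smallest p-values and all calls of each list, and 5 genes most like the members. PSMB8, PSMB10, TAPBPL, CALR, CANX, MICA, HLA-DMA, KRT19, CDH1, CD274 and genes named at 0 or as markers were added after their values were seen. An item of the interferon list is not reported here. Members and lists were chosen with earlier results of these data known. Alternatives were other pseudocounts, filters, scalings, a replicate block, a GC trend and left-out libraries. GC content is from GENCODE v44, and promoter windows from RefSeq.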

Additional observations from a re-analysis of the deposited data

Results flagged for a closer look

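In groups of 4 libraries, a library was noted where its gap to the nearest other was most of the group's range, and chance gives about 1 in 20 such groups. Among 78 groups of values this held for 5. IRF1 was at 13.5 FPKM in untreated replicate 5, where the other untreated libraries had 7.97 to 8.09 FPKM. IRF1 was also at 6.18 FPKM in dexamethasone replicate 5, where the others had 4.86 to 5.07 FPKM. PSMB10 was at 21.9 FPKM in untreated replicate 5, against 11.8 to 12 FPKM in the others. CD47 was at 10.5 FPKM in dexamethasone replicate 5, against 7.11 to 7.39 FPKM in the others. HLA-C made up 35.8% of the 4 summed heavy chains in dexamethasone replicate 3, against 33.7% to 34.0% in the others.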

How the results depend on the processing

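The count of all genes called, 3251, became 5747 with the replicate block, 5344 with the GC trend removed and the replicate block, and 5514 without both libraries numbered 5. The count of members called, 2 of 9, became 4 of 9 with the replicate block, adding HLA-E and TAPBP. That block called 47.3% of all tested genes, where the reported fit called 26.7%. The 11 calls among the other list genes, of which 66 were tested in the reported fit, became 18 without scaling, 17 with the GC trend removed, 31 with the replicate block, 26 with both the GC trend removed and the block, and 31 without both libraries numbered 5. The shares of all tested genes called in these settings were, in the same order, 27.0%, 36.7%, 47.3%, 44.1% and 45.1%. Leaving out 1 library at a time gave 2317 to 3846 genes (18.9% to 31.3% of those tested), 1 to 3 members and 9 to 16 list genes, with 1 member where dexamethasone replicate 1, 3 or 4 was left out. The direction reversed for HLA-C (0.079) and B2M (-0.15) with the GC trend removed, with and without the block, and for HLA-B without untreated replicate 5 (0.030, in a range of -0.49 to 0.030 over left-out libraries) and for PSMB10 without the same library (0.022, in a range of -0.38 to 0.022). The log2 ratio of the summed heavy chains, 0.12, ranged from -0.01 without dexamethasone replicate 5 to 0.27 without untreated replicate 5. The cause was not tested. Same-numbered wells correlated at 0.292, 0.066, 0.315 and 0.713 for replicates 1, 3, 4 and 5. Untreated replicates 3 and 4 matched dexamethasone replicate 1 best, and the reported fit did not take the numbers as pairs. With so few wells this check cannot exclude pairing. HLA-E and TAPBP, which did not pass in the reported fit, passed with the replicate block (limma adjusted p = 0.0111 and 0.0244).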
